A study of Mus musculus with 6 samples.

Results

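Genes for the pore-forming and accessory subunits of potassium channels, voltage-gated sodium channels and hyperpolarization-activated (HCN) channels were examined in left ventricles of mice. They were taken by symbol, as all genes whose name begins with Kcn, those named Scn with a number and a or b, and those named Hcn with a number, apart from Kcnj8, the subunit of mural cells. This gave 53 of the 13384 genes measured, of which 42 were Kcn, 8 Scn and 3 Hcn genes. Of them 51 encode proteins and 2, Kcnq1ot1 and Kcnd3os, are noncoding. The groups were 3 adult Cygb(-/-) mice, here called knockout, which lack the tissue globin cytoglobin in the whole body, and 3 wild-type littermates. Subcutaneous osmotic pumps delivered angiotensin II to all 6 animals, at a dose of 1.5 mg/kg/day over 2 weeks, and polyadenylated RNA from the left ventricle of each individual animal was then sequenced. Animals without angiotensin II were not analysed here, so no value below is an effect of the hormone. The deletion is not restricted to any cell type, and the libraries are of whole ventricular tissue. In such tissue, fewer cells of a type and less RNA per cell cannot be told apart.

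The ventricular action potential starts with the opening of sodium channels and ends through potassium channels that open in sequence. In the mouse the fast transient outward current, carried by Kv4 channels (Kcnd2, Kcnd3) with the accessory subunit KChIP2 (Kcnip2), and delayed rectifiers such as Kv1.5 (Kcna5) bring most of the repolarization. Inward rectifiers (Kcnj2, Kcnj12) hold the resting potential, and HCN channels carry the pacemaker current of conducting cells. Loss of transient outward and other potassium currents is a known feature of the hypertrophied heart.

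Levels were compared between genes in TPM, the per-length unit of RNA-seq, in which counts are divided by the length of the longest annotated transcript and then scaled to the same sum in every library. The highest level by this measure was that of Kcnk3, which encodes the acid-sensitive tandem-pore channel TASK-1, at 147 ± 4.16 TPM in knockout and 190.5 ± 35.7 TPM in wild-type ventricles (SD, n = 3 each, as for all means below). Kcnj11, the pore of the ATP-sensitive channel of heart muscle, was at 99.7 ± 12.3 TPM in knockout and 109 ± 18.1 TPM in wild-type ventricles. The silent subunit gene Kcng2, whose product modifies other Kv channels, was at 76.3 ± 6.78 TPM in the knockout and 109 ± 23.4 TPM in the wild type. Kcnip2 followed, at 50.0 ± 7.01 TPM in knockout and 46.4 ± 7.87 TPM in wild-type ventricles. Kcnj11 and Kcng2 overlapped in the wild type. This order is for the longest transcript only and can depend on the length used. The mean annotated length was 2159 bases for Kcnk3 and 1092 bases for Kcnj11. The 5 most abundant members, these 4 among them, made up 56.8% to 57.6% of the summed TPM of all 53 members in the knockout libraries and 59.4% to 63.0% in the wild-type libraries. In the other direction, 25 of the 53 had a mean of under 5 CPM, counts scaled to a fixed library total but not to length. The summed level of all members was 782 to 902 TPM in knockout and 777 to 1011 TPM in wild-type libraries, so the groups overlapped.

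**Figure D1:**
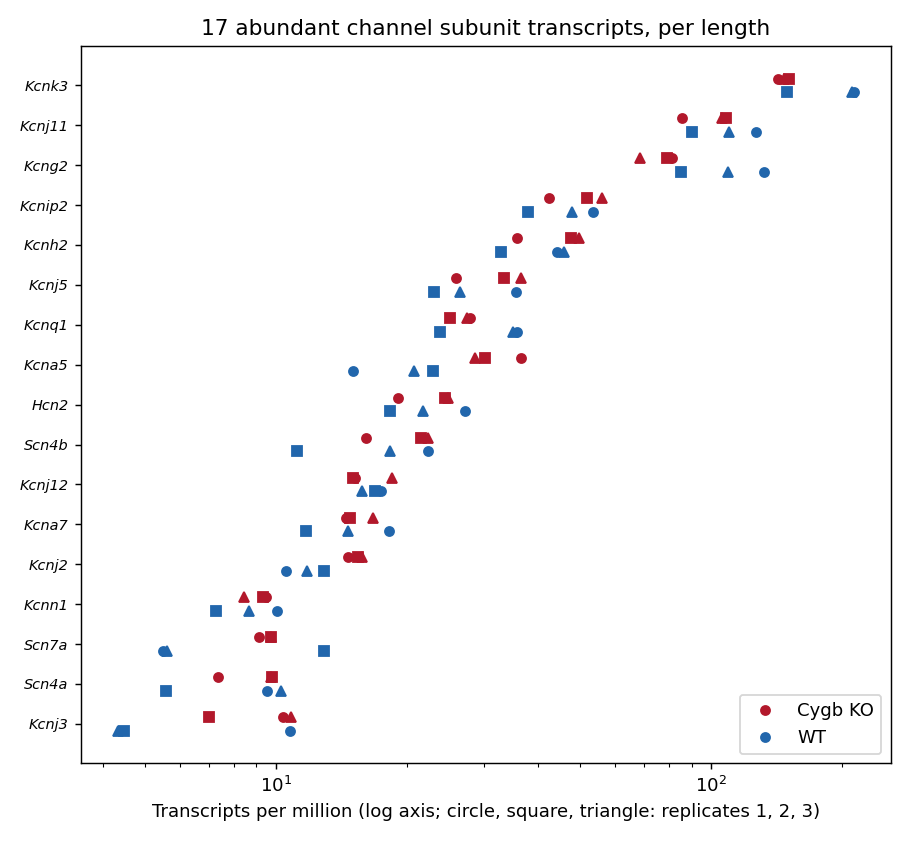
Level per transcript length of 17 abundant channel subunit transcripts in each library, in TPM on a log axis, with knockout libraries above wild-type libraries in each row. Kcnk3 leads, and the 3 knockout points lie above all wild-type points in Kcna5 and Kcnj2 and below them in Kcng2.

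Counts were tested across all 13384 genes with edgeR's quasi-likelihood test, with Benjamini-Hochberg adjustment over all of them and a threshold of 0.05. No member passed, where 0.0897% of all genes were higher and 0.0224% lower in the knockout. At an unadjusted p under 0.05, 6 members (11.3%) were higher, against 10.2% of all genes, and 5 (9.43%) were lower, against 8.94%. The knockout libraries lay wholly above the wild-type libraries for 7 members (13.2%), against 11.8% of all genes, and wholly below them for 2 (3.77%), against 10.5%. Apart from the last, in which members had a lower share, these shares are near those of all genes and say nothing particular of channel genes. The median log2 fold change, knockout over wild type, was 0.11 over the 53 members and -0.0045 over all genes, with 33 members above 0. DESeq2, run on the same counts, called 5 members higher (9.43%, against 2.63% of all genes) and 2 lower (3.77%, against 1.99%). Those higher included Kcnd2, Kcnd3, Kcna5 and Scn10a, and those lower included Kcne1. limma-voom called none, and 0.0672% of all genes higher and 0.0374% lower. Because no member passed the edgeR test, values and not calls are given below.

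The libraries held 23190864 to 30354857 counts, and the gene with the lowest count in any library had 12. Base composition differed between libraries. Per 10 percentage points of transcript GC content, the level of a gene shifted by -0.18, -0.060 and -0.15 on the log2 scale in knockout replicates 1, 2 and 3, and by 0.27, -0.089 and 0.21 in wild-type replicates 1, 2 and 3. Wild-type replicates 1 and 3 thus stood apart from the other 4 libraries. Members had a median GC content of 53.2%, against 49.9% over all genes, and values are therefore also given after a correction that removes the trend of each library on GC content and length. Single wild-type libraries also differed in cell type markers. The summed level of 8 atrial muscle markers was 938 CPM in wild-type replicate 1, against 112 to 174 CPM in the other 5 libraries. The summed level of 8 fibroblast markers was 2436, 3279 and 2377 CPM in wild-type replicates 1, 2 and 3. In knockout replicates 1, 2 and 3 it was 2016, 2134 and 2026 CPM. Wild-type replicate 2 was thus the highest, and every knockout library was below every wild-type library. The 10 heart muscle markers, Myh6 and Tnnt2 among them, summed to 63550 to 75560 CPM in knockout and 62500 to 80680 CPM in wild-type libraries.

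The genes of the transient outward current included 2 of the members with the smallest p-values. Kcnd2, which encodes Kv4.2, was at 22.5, 20.4 and 24.8 CPM in knockout replicates 1, 2 and 3, against 15.5, 12.8 and 12.9 CPM in wild-type replicates 1, 2 and 3. Every knockout library was above every wild-type library. The log2 fold change was 0.72 (SE 0.15, edgeR adjusted p = 0.0634), a 1.65-fold higher level. The gene spans chromosome 6 from 21215346 to 21729805 in GRCm38. Kcnd3, which encodes Kv4.3, was at 17.6, 15.6 and 19.9 CPM in knockout mice, against 8.40, 12.6 and 11.01 CPM in wild-type mice. Its groups did not overlap either (log2 fold change 0.73, SE 0.18, edgeR adjusted p = 0.0834). Kcnip2, whose product is the calcium-binding partner of both, showed no such separation in uncorrected values. It was at 68.5, 76.2 and 89.2 CPM in knockout mice and 80.3, 55.8 and 75.7 CPM in wild-type mice (0.14, SE 0.16, edgeR adjusted p = 0.636). Kcnip3, a related calcium-binding protein gene, was at 0.14 (SE 0.29). Kcna4, which encodes Kv1.4, the pore of the slowly recovering part of the transient outward current, was the one member of the 5 below 0. It was at 1.23, 1.17 and 1.32 CPM in knockout mice and 2.80, 2.33 and 1.28 CPM in wild-type mice. Wild-type replicate 3 lay within the knockout range, and the log2 fold change was -0.78 (SE 0.33, edgeR adjusted p = 0.229). With the GC content and length trend removed, Kcnd2 was at 0.52, Kcnd3 at 0.56 and Kcna4 at -0.94, and none passed (edgeR adjusted p = 0.131, 0.177 and 0.225). Kcnip2 was then at 0.32 (edgeR adjusted p = 0.262). In that fit the groups of neither Kcnip2, higher in the knockout, nor Kcna4, lower in it, overlapped. Without wild-type replicate 2, Kcnd2 (0.68, edgeR adjusted p = 0.0156) and Kcnd3 (0.87, 0.0107) passed, in a fit in which 7.25% of all genes were higher and 6.39% lower. Across all 16 alternatives the edgeR, DESeq2 or limma adjusted p ran from 0.00279 to 0.324 for Kcnd2 and from 0.0107 to 0.405 for Kcnd3.

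The sequences before the annotated starts of these genes are shown because Kcnd2, Kcnd3 and Kcna5 had non-overlapping, higher knockout levels, while Kcna4 had a lower mean. Each is the 250 bases upstream of the RefSeq start in GRCm38.p6, 5′ to 3′ on the gene's strand. They lie at chr6:21215096-21215345, plus strand, for Kcnd2, at chr3:105451640-105451889, plus strand, for Kcnd3, at chr2:107290339-107290588, plus strand, for Kcna4, and at chr6:126535556-126535805, minus strand, for Kcna5. Capitals mark the only motif matches found, GC boxes (GGGCGG on either strand).
Kcnd2: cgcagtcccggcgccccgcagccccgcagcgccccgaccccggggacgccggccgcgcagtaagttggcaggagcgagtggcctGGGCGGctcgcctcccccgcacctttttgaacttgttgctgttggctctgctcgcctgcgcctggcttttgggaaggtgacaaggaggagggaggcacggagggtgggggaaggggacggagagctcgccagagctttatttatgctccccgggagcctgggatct
Kcnd3: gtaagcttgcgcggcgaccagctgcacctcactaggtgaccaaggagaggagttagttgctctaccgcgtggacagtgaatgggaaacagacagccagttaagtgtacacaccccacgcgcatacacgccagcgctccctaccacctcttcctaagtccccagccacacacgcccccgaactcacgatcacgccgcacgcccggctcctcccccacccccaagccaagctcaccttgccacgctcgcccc
Kcna4: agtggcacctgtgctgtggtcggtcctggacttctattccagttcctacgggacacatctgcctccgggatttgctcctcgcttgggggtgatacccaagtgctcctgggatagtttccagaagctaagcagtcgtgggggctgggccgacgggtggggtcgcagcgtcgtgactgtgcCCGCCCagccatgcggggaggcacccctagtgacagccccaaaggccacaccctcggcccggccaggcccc
Kcna5: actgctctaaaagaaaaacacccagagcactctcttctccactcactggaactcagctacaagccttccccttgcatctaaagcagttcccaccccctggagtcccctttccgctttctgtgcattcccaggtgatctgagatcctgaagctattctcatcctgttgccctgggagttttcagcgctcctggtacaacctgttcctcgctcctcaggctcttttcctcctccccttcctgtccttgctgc
The windows were 68.8%, 62.8%, 65.2% and 53.2% GC for Kcnd2, Kcnd3, Kcna4 and Kcna5. Matches of different motifs were allowed to overlap, and both strands were searched. Upstream sequences were available for 35 members, with 46 start windows. A GC box was in 37.0% of these 46 windows, against 32.7% of all 32851 windows of that length. The TATA box letters TATAAA were in 0 of the members' windows, against 12.4% of all. The E-box letters CACGTG were in 5 of the members' windows (10.9%), against 6.02% of all. The GATA letters AGATAA were in 2 (4.35%), against 9.99% of all. The Iroquois letters ACANNTGT were in 1 (2.17%), against 6.31% of all. These windows are few, and some genes have more than 1, so no contrast is drawn. A match is a description of letters and not of a bound site. The Kcnd3 window overlaps an exon of Kcnd3os, a noncoding gene that overlaps Kcnd3. Kcnd3os was at 0.69 to 1.28 CPM in knockout and 0.89 to 1.34 CPM in wild-type libraries (log2 fold change -0.20, SE 0.34). Whether the counting used strand is not given in the sources used here, and the reads where both genes overlap cannot be told apart.

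Among the other voltage-gated potassium channel alpha subunits, 6 of 8 were above 0, where 49.45% of all genes were. For 2 of the 8, Kcna5 among them, the knockout lay wholly above the wild type, as for 11.8% of all genes. These genes are too few to draw a contrast. Kcna5, which encodes Kv1.5, was at 54.2, 40.9 and 41.8 CPM in knockout replicates 1, 2 and 3, against 20.7, 30.9 and 30.2 CPM in wild-type replicates 1, 2 and 3. All knockout values were higher (log2 fold change 0.74, SE 0.17, edgeR adjusted p = 0.0781). Kcna5 was at 0.89 after the GC content and length correction (edgeR adjusted p = 0.113). It passed without wild-type replicate 2 (edgeR adjusted p = 0.0164), in a fit in which 13.6% of all genes passed. With any other library left out it did not pass (edgeR adjusted p from 0.121 to 0.303). The summed level of the 8 genes, most of it from Kcna5 and Kcna7, was 64.7 ± 2.08 TPM in knockout and 47.9 ± 1.43 TPM in wild-type ventricles. Kcna7, a gene of skeletal and heart muscle, was at 0.084 (SE 0.18). After the correction it was at 0.42 (edgeR adjusted p = 0.225), and its groups did not overlap. The neuronal subunit genes Kcna1, Kcna2 and Kcna6 were at 0.50, 0.50 and 0.38, with SEs of 0.41, 0.33 and 0.30, at levels under 4 CPM in every library. Kcna5, Kcna1 and Kcna6 stand in a row on chromosome 6, with 100.9 kb between Kcna5 and Kcna1 and 62.5 kb between Kcna1 and Kcna6. Kcnc1, of the fast Kv3 channels, was at -0.71 (SE 0.41). Neither beta subunit gene stood apart, with Kcnab1 at -0.16 (SE 0.34) and Kcnab2 at -0.0051 (SE 0.28).

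**Figure D2:**
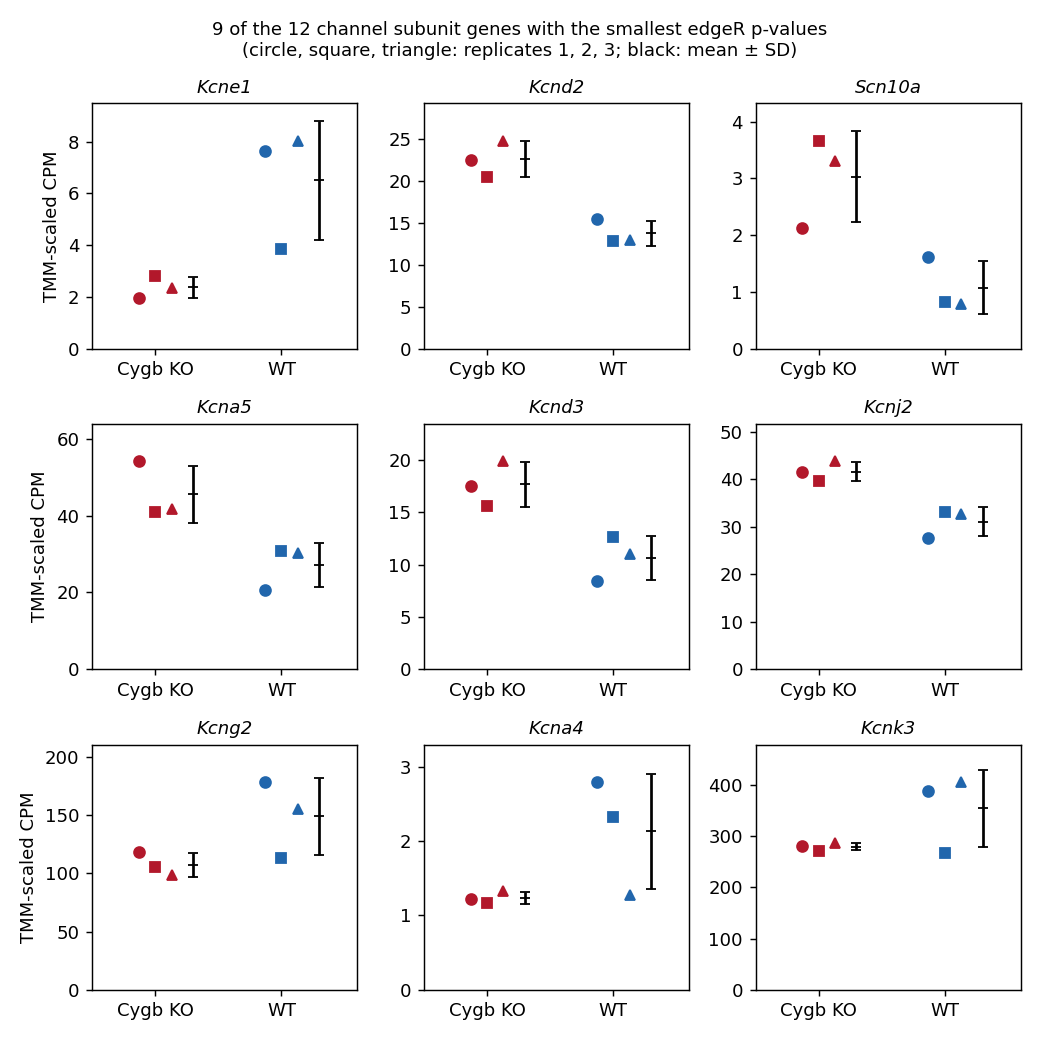
TMM-scaled level in CPM of 9 of the 12 channel genes with the smallest edgeR p-values, by library, with knockout libraries left of wild-type libraries and the mean ± SD in black. Kcne1 lies lower, and Kcnd2, Scn10a, Kcna5, Kcnd3 and Kcnj2 higher, in all 3 knockout libraries. In Kcng2, Kcna4 and Kcnk3 the groups touch or overlap.

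Silent subunits form no channel alone and change the properties of their partners. Kcng2 was at 119, 105 and 98.6 CPM in knockout replicates 1, 2 and 3, and 179, 113 and 156 CPM in wild-type replicates 1, 2 and 3. On this TMM-scaled measure wild-type replicate 2 lay inside the knockout range (log2 fold change -0.47, SE 0.16, edgeR adjusted p = 0.155). It passed without that library (-0.63, edgeR adjusted p = 0.00975). After the GC content and length correction its value was -0.084, and Kcng2 is a GC-rich transcript (61.5%). Kcnv2 was at 0.42 (SE 0.36), with wild-type replicate 2 the lowest library at 1.98 CPM against 4.79 to 7.36 CPM in the knockout.

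The member with the smallest p-value was Kcne1. Its product, also called minK, is a small single-pass membrane protein that joins the Kcnq1 channel and slows its opening. Kcne1 was at 1.96, 2.79 and 2.34 CPM in knockout replicates 1, 2 and 3, against 7.62, 3.84 and 8.03 CPM in wild-type replicates 1, 2 and 3. Every knockout library was below every wild-type library, and wild-type replicate 2 was the closest. The level was 2.75-fold lower in the knockout (log2 fold change -1.46, SE 0.30, edgeR adjusted p = 0.0631). It was at -1.33 with the GC content and length trend removed (edgeR adjusted p = 0.0665) and at -1.33 without wild-type replicate 1 (0.117). Leaving out wild-type replicate 2 gave -1.72 (0.00254). The atrial marker sum was 114, 112 and 121 CPM in knockout replicates 1, 2 and 3 and 938, 139 and 174 CPM in wild-type replicates 1, 2 and 3. Like Kcne1, it was below every wild-type library in every knockout library and closest in wild-type replicate 2, but it was highest in wild-type replicate 1 and Kcne1 in replicate 3. The sum of 8 Purkinje and conduction markers was 130 to 151 CPM in knockout and 149 to 193 CPM in wild-type libraries, and the part of either list in the Kcne1 value was not tested. Kcne1 lies on chromosome 16 from 92346001 to 92359468 in GRCm38. Its partner gene Kcnq1 was at 40.8 ± 4.24 CPM in knockout mice and 46.6 ± 10.9 CPM in wild-type mice (-0.19, SE 0.17, edgeR adjusted p = 0.555). Kcnq1ot1, the noncoding transcript that overlaps Kcnq1, was at -0.26 (SE 0.19), and at -0.80 after the correction (edgeR adjusted p = 0.141); its annotated length of 93092 bases is far above that of the other members. Kcne4, an inhibitory relative of Kcne1, was at 0.21 (SE 0.27). Kcnh2, the gene of the ERG channel of the rapid delayed rectifier, was at 78.5, 94.8 and 106.9 CPM in knockout mice and 89.9, 65.4 and 98.2 CPM in wild-type mice (0.14, SE 0.17, edgeR adjusted p = 0.656). It was at 0.45 after the correction (edgeR adjusted p = 0.121). 

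Inward rectifier genes went both ways, with 4 of 8 above 0 and a median log2 fold change of -0.041. Kcnj2, which encodes Kir2.1, the main subunit of the resting potassium current, was at 41.5, 39.7 and 43.8 CPM in knockout replicates 1, 2 and 3, against 27.5, 33.1 and 32.6 CPM in wild-type replicates 1, 2 and 3. Its groups did not overlap (log2 fold change 0.42, SE 0.13, edgeR adjusted p = 0.127). The corrected value was 0.15, and Kcnj2 has a low GC content of 41.2%. Kcnj12, which encodes the related Kir2.2, was at 20.1 ± 2.94 CPM in knockout mice and 19.9 ± 0.595 CPM in wild-type mice. Kcnj11 was at 139.7, 161 and 169 CPM in knockout mice and 192, 134 and 175 CPM in wild-type mice (-0.091, SE 0.15). Its groups overlapped, as did those of the regulatory subunit genes of the same channel, Abcc9 (0.056, SE 0.12, corrected -0.18) and Abcc8 (0.036, SE 0.20, corrected 0.19). Kcnj3 and Kcnj5 encode the G-protein-gated channel that acetylcholine opens, which is most abundant in atrial and nodal cells. Kcnj3 was at 28.1, 17.3 and 28.7 CPM in knockout mice and 27.0, 10.97 and 11.5 CPM in wild-type mice (0.59, SE 0.39, edgeR adjusted p = 0.451). The high wild-type value came from replicate 1, the library with high atrial markers. Knockout replicates 1 and 3 had similar Kcnj3 levels, with atrial marker sums of 114 and 121 CPM against 938 CPM in that library. The part of atrial tissue in the Kcnj3 values was not tested. Without wild-type replicate 1 the log2 fold change was 1.14 (edgeR adjusted p = 0.0749, the lowest of its 16 alternatives). With the GC content and length correction it was 0.36 (edgeR adjusted p = 0.767). Kcnj5 was at 0.21 (SE 0.17). Kcnj6, Kcnj14 and Kcnj15, all under 4 CPM, were at -0.48 (SE 0.36), -0.20 (SE 0.33) and -0.48 (SE 0.39).

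Kcnk3 was the most abundant member in TPM by the longest transcript. It was at 282, 272 and 286 CPM in knockout replicates 1, 2 and 3, and 390, 268 and 407 CPM in wild-type replicates 1, 2 and 3. Wild-type replicate 2 was below all knockout libraries, the other wild-type libraries above them (log2 fold change -0.34, SE 0.15, edgeR adjusted p = 0.2496). Without replicate 2 it passed (-0.50, edgeR adjusted p = 0.0132), and after the GC content and length correction it was at -0.075 (0.784). The other tandem-pore genes were the stretch-sensitive Kcnk2 at -0.31 (SE 0.25), Kcnk6 at 0.15 (SE 0.19) and Kcnk13 at 0.050 (SE 0.35). Of the potassium channels opened by calcium, the small-conductance genes Kcnn1, Kcnn2 and Kcnn3 were at 0.11 (SE 0.16), 0.22 (SE 0.18) and 0.24 (SE 0.35). Kcnn4, of the intermediate-conductance channel found in blood and stromal cells, was at 0.67 (SE 0.41) and ran from 0.62 to 1.59 CPM in knockout mice and 0.52 to 0.93 CPM in wild-type mice. Kcnmb1, the smooth muscle beta subunit of the large-conductance channel, was at -0.42 (SE 0.31). The 10 mural markers had a median log2 fold change of -0.33. They summed to 2637 to 3279 CPM in knockout and 3330 to 3935 CPM in wild-type libraries, so these groups did not overlap. The part of the mural markers in the Kcnmb1 value was not tested. The sodium-activated channel gene Kcnt2 was at 4.37, 4.58 and 4.72 CPM in knockout mice and 3.01, 8.26 and 2.75 CPM in wild-type mice, where replicate 2 lay above every other library (-0.033, SE 0.37).

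**Figure D3:**
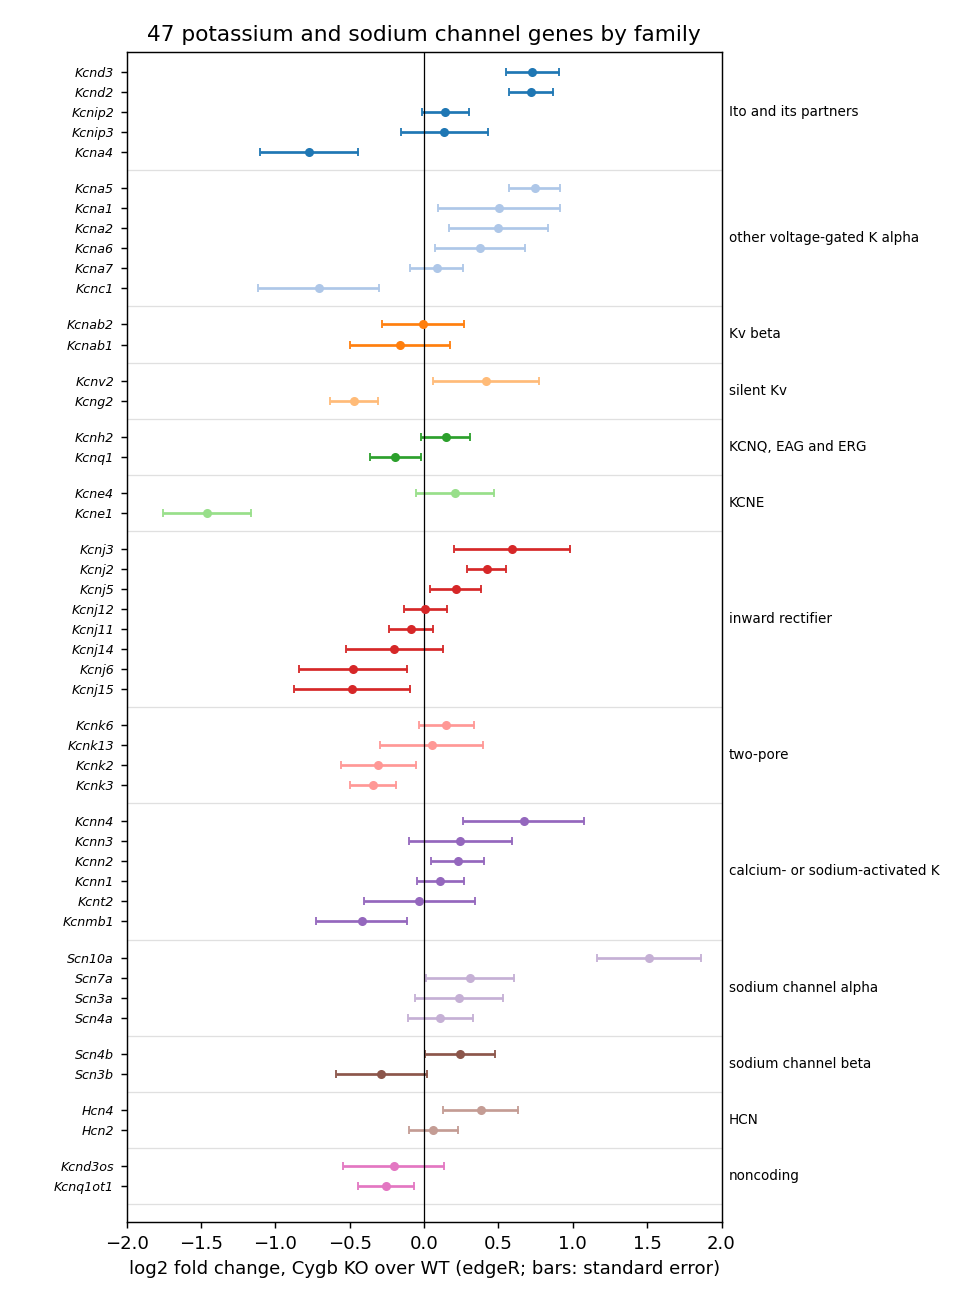
Log2 fold change, knockout over wild type, of 47 of the 53 channel genes with standard errors from edgeR, grouped by family. Values run from -1.46 for Kcne1 to 1.51 for Scn10a, and families such as the inward rectifiers spread to both sides of 0, while the sodium channel alpha subunit genes shown lie above it in this fit, though Scn3a does not with the correction for GC content and length, nor Scn4a without wild-type replicate 2.

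All 5 sodium channel alpha subunit genes were above 0, none of them past the test, though Scn3a was at -0.091 with the GC content and length correction and Scn4a at -0.12 without wild-type replicate 2. Scn10a, which encodes Nav1.8 of sensory neurons, had the largest fold change of the members. It was at 2.12, 3.66 and 3.31 CPM in knockout mice, against 1.61, 0.81 and 0.79 CPM in wild-type mice. The groups did not overlap (1.51, SE 0.35, edgeR adjusted p = 0.0769), with raw counts of 52 to 88 in knockout and 21 to 39 in wild-type libraries. The summed level of 7 Schwann cell and neural markers was 19.9 to 24.3 CPM in knockout and 20.2 to 28.0 CPM in wild-type libraries, so these groups overlapped, and their part in the Scn10a value was not tested. In GRCm38, Scn10a spans chromosome 9 from 119608456 to 119719322. The correction for GC content and length left Scn10a at 1.47 (edgeR adjusted p = 0.0792). Over 15 alternatives it ran from 1.33 to 1.92, and it passed in 3 of them. Scn7a, a sodium-sensing channel gene of glial and stromal cells, was at 34.7, 33.7 and 36.6 CPM in knockout mice and 19.4, 44.6 and 20.9 CPM in wild-type mice. Wild-type replicate 2, which also had the highest fibroblast marker sum, was above the knockout and the other wild-type libraries below it (0.31, SE 0.30). Of those markers, Gsn and Tcf21 were highest in wild-type replicate 1. Without wild-type replicate 2 the Scn7a value was 0.80 (edgeR adjusted p = 0.00492), and corrected for GC content and length in all 6 libraries it was 0.023. Scn4a, the skeletal muscle channel gene, was at 0.11 (SE 0.22), and Scn3a at 0.24 (SE 0.30).

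The beta subunits are single-pass proteins that adjust gating and adhesion of the sodium channel. Scn4b was at 41.5, 50.8 and 56.7 CPM in knockout mice and 53.6, 26.2 and 46.3 CPM in wild-type mice (0.24, SE 0.23), and Scn3b at -0.29 (SE 0.31). Hcn4, the pacemaker channel of the sinus node, was at 7.62 ± 1.30 CPM in knockout mice and 5.84 ± 1.92 CPM in wild-type mice (0.38, SE 0.25). Its value with the GC content and length correction was 0.50 (edgeR adjusted p = 0.345). Hcn2, the more abundant ventricular form, was at 36.4 ± 4.50 CPM in knockout mice and 34.8 ± 7.14 CPM in wild-type mice (0.063, SE 0.16). It is the member with the highest GC content (65.4%), and its corrected value was 0.56 (edgeR adjusted p = 0.0779).

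The correction thus moved members in both directions. With it, 12 members (22.6%) were higher at an unadjusted p under 0.05, against 7.33% of all genes, and 3 (5.66%) were lower, against 6.8%. So 12 of 15 such members were higher with it and 6 of 11 without it. The 12 included Kcnd2, Kcnd3, Kcnip2, Kcna5, Kcna7, Kcnh2, Kcnn1, Scn10a, Hcn2 and Hcn4, and the 3 lower ones were Kcne1, Kcna4 and Kcnq1ot1. None passed after adjustment over all genes, where 0.194% of all genes were higher and 0.127% lower in that fit. Kcng2, Kcnk3 and Kcnj2 were each within 0.16 of 0 with the correction. Across the 53 members the Spearman correlation of GC content with the uncorrected log2 fold change was -0.27, and across 13100 genes it was -0.51. For transcript length the same correlations were 0.38 and 0.33, so longer transcripts tended to be higher in the knockout. The median length was 4191 bases in the members and 3404 bases over all genes. Genes of 1 library share its trends, so these correlations are a description of the libraries.

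**Figure D4:**
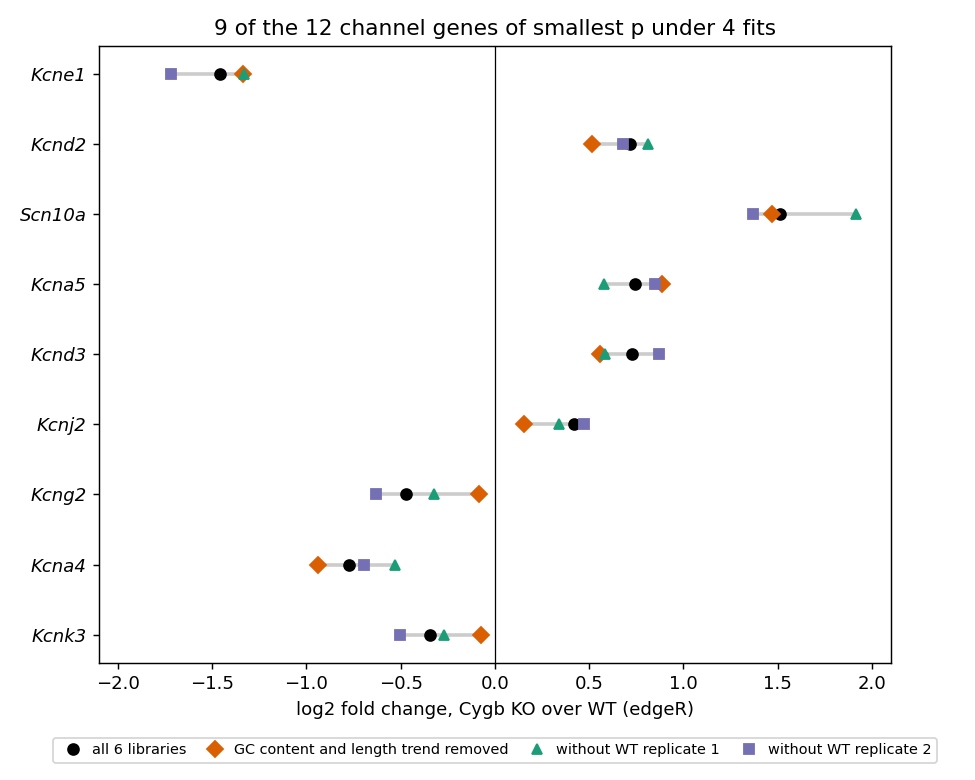
Log2 fold change, knockout over wild type, of 9 of the 12 channel genes with the smallest p-values, in the fit of all 6 libraries (black circles), corrected for GC content and length (diamonds), and with replicate 1 (triangles) or replicate 2 (squares) of the wild type left out. All 9 genes keep their sign in these 4 fits. The diamonds of Kcng2, Kcnk3 and Kcnj2 lie near 0, at -0.084, -0.075 and 0.15. Among Kcne1, Kcnd2, Scn10a, Kcna5, Kcnd3 and Kcna4 the smallest value in size is 0.52, for Kcnd2.

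Wild-type replicate 2 had the lowest of the 6 values for 20 of the 53 members (37.7%), against 15.9% of all genes. The 20 included Kcnd2, Kcnk3, Kcnip2, Kcnh2, Kcnq1, Kcnj5, Kcnj11, Scn4b, Hcn2 and Hcn4. In Kcnd3, Kcna5 and Kcnj2, by contrast, it was the highest of the 3 wild-type libraries, at 12.6, 30.9 and 33.1 CPM. It had the highest value for 9, among them Scn7a, Kcnt2, Kcne4 and Kcnmb1. Knockout replicate 3 was the highest library for 15 members (28.3%), against 19.0% of all genes. Without wild-type replicate 2, 7 members were called higher by edgeR (13.2%, against 7.25% of all genes) and 4 lower (7.55%, against 6.39%). Those higher included Kcnd2, Kcnd3, Kcna5, Kcnj2, Scn10a and Scn7a, and those lower Kcne1, Kcng2 and Kcnk3. In that fit the median over the members was 0.0048. What set this library apart was not tested.

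Other genes of cardiac excitability were read from lists of channel partners, calcium channels, pumps and exchangers, other channels and connexins. Of 73 genes measured, none passed the edgeR test. At an unadjusted p under 0.05, 13 (17.8%) were higher, against 10.2% of all genes, and 6 (8.22%) were lower, against 8.94%. With the GC content and length correction 8 (10.96%) were higher, against 7.33% of all genes, and 2 (2.74%) lower, against 6.8%, and none passed after adjustment. The corrected log2 fold changes of the genes below were 0.21 for Akap9, -0.14 for Irx4, 0.46 for Cacna2d1 and 0.086 for Cacnb2. They were -0.076 for Fxyd1, -0.41 for Fxyd5, 0.15 for Clcn3, 0.23 for Trpm7, -0.015 for Gja4 and -0.35 for Gja5. The values that follow are uncorrected. Among those named below, DESeq2 called Akap9, Cacna2d1 and Clcn3 higher (adjusted p = 0.0412, 0.00256 and 0.0465). Of the 26 partners and regulators 6 were higher and 2 lower at that level. Akap9, the scaffold of the Kcnq1 channel, was at 66.0, 59.5 and 75.5 CPM in knockout replicates 1, 2 and 3, against 42.6, 55.7 and 39.7 CPM in wild-type replicates 1, 2 and 3 (log2 fold change 0.54, SE 0.15, edgeR adjusted p = 0.109). Irx4, a ventricular homeobox gene, was at 24.8, 34.1 and 35.3 CPM in knockout mice, against 49.1, 37.0 and 47.1 CPM in wild-type mice (-0.50, SE 0.16, edgeR adjusted p = 0.141). In both, the groups did not overlap. Irx5, which represses Kcnd2 in the mouse heart, was at 7.92, 8.70 and 8.69 CPM in knockout mice and 12.7, 7.25 and 12.6 CPM in wild-type mice (-0.36, SE 0.22). Its groups overlapped through wild-type replicate 2, and with the GC content and length correction its value turned to 0.18. Among 12 calcium channel genes 4 were higher and 1 lower, led by the auxiliary subunit genes Cacna2d1 (0.79, SE 0.17, edgeR adjusted p = 0.0679) and Cacnb2 (0.38, SE 0.14, edgeR adjusted p = 0.162). Of 14 pump and exchanger genes 2 were lower, Fxyd1, which encodes the sodium pump regulator phospholemman (-0.37, SE 0.15), and Fxyd5 (-0.48, SE 0.20). Of 17 other channel genes 3 were higher and 1 lower, with the smallest p-values for the chloride transporter gene Clcn3 (0.50, SE 0.14) and the magnesium-permeable channel kinase gene Trpm7 (0.55, SE 0.17). No connexin of 4 reached that level, the smallest p-values being those of Gja4 (-0.30, SE 0.16) and the atrial and conduction system gene Gja5 (-0.45, SE 0.30). Gja5 was at 16.7 CPM in wild-type replicate 1, the library with high atrial markers, and 6.29 to 8.91 CPM in the other 5.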

How the data were processed

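The table holds raw, whole-number counts per gene for 6 libraries, 1 per mouse, as the authors deposited them. DESeq2 and mm10 appear, without versions, in the submitters' processing notes. How reads were aligned and counted, and whether by strand, is not given in the sources used here. Every gene in the table had at least 12 counts and 0.507 CPM in every library, so members below that level were not analysed here, nor was Cygb. The genotypes are those of the labels.

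The fit of the counts used edgeR 4.0.16 in R 4.3.3, with TMM factors, filterByExpr (which kept all 13384 genes), a robust quasi-likelihood fit and no covariates. Tests were two-sided and adjusted by Benjamini-Hochberg over all genes. The common biological coefficient of variation was 0.166. The standard error is the log2 fold change divided by the root of the F statistic. CPM values are TMM-scaled. TPM values used the longest GENCODE M21 transcript. Lengths and GC content were found for 97.9% of genes. The correction fitted splines with 4 degrees of freedom on GC content and log length to each library's deviations and entered them as offsets. Other fits used RLE or upper quartile factors, other filters, no robust estimation, DESeq2 1.42.0, limma-voom 3.58.1, a block on the replicate number, or 5 libraries at a time. The scripts were tested on simulated data. Coordinates and upstream sequences are from RefSeq GRCm38.p6.

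The members and lists were chosen with earlier results of these data known. The members to describe were the 12 of smallest p and 19 heart channel genes whatever their result, 23 in all, with further members named within their family, and the 2 genes of smallest p in each list of other genes. Some members are counted but not reported by name here. Irx5, Abcc8 and Abcc9 were chosen after their values were seen.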

Additional observations from a re-analysis of the deposited data

How the results depend on the processing

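The number of members past the adjusted threshold was 0 higher and 0 lower in edgeR, 5 and 2 in DESeq2, and 3 and 1 with the replicate block. With 1 library left out it ran from 0 to 7 higher and 0 to 4 lower, and only the fit without wild-type replicate 2 gave any. The labels do not say whether the replicate numbers pair the animals. Deviations from the group means correlated at -0.12, -0.076 and -0.15 between same-numbered libraries, and no sample correlated best with its own number. With 3 animals a group, such correlations cannot decide whether animals were paired. The block gave 218 calls over all genes (0.979% higher and 0.65% lower), against 15 without it. At an unadjusted p under 0.05, members higher numbered 12 with the GC content and length correction, 12 with that and the replicate block, and 6 to 12 with a library left out (12 without wild-type replicate 1), against 7.33%, 6.77% and 5.6% to 16.3% of all genes (8.82% without wild-type replicate 1). With a mean of at least 5 CPM, 3 of the 28 members tested were lower (10.7%, against 9.45% of the 10456 genes tested). Members lower also numbered 3 (5.66%) with limma-voom, the block, the correction, or the correction and block. The shares of all genes there were 8.38%, 7.16%, 6.8% and 6.42%. With a library left out 2 to 5 members were lower, where 4.54% to 15.3% of all genes were lower. Non-overlapping members were 12 higher and 4 lower under the correction with or without the block (9.88% and 8.72% of all genes). With a mean of at least 5 CPM, 1 of the 28 members tested was lower without overlap, against 1147 of the 10456 genes tested. With a library left out, 8 to 12 non-overlapping members were higher and 3 to 7 lower. There 14.1% to 24.2% of all genes were higher without overlap and 12.5% to 24.3% lower. The median log2 fold change was 0.18 with a mean of at least 5 CPM, 0.20 with the correction, 0.19 with the correction and block, and from 0.0048 (without wild-type replicate 2) to 0.15 with a library left out, with 0.036 without knockout replicate 3. With the mean transcript length in place of the longest, the family median level was 64.9 TPM for KCNQ, EAG and ERG, 8.49 for inward rectifiers, 3.61 for tandem-pore, 5.99 for sodium channel alpha, 12.7 for beta and 1.52 for HCN genes, against 29.2, 10.7, 2.86, 8.70, 18.6 and 2.22 with the longest.

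Of 364 values of the 23 members taken by rule under alternatives, 330 kept their direction and their side of the threshold, 21 passed where the edgeR fit of all libraries did not, and 13 changed sign. Those that changed sign had values of 0.24 or less in size. Kcnq1 was at 0.048 with the correction and 0.049 with correction and block, and Kcnj11 at 0.14 and 0.14. Kcnj12 was at -0.0057 with upper quartile factors and -0.0016 in limma-voom. With a library left out, Kcnj12 ran from -0.11 to 0.097, Kcnj11 from -0.22 to 0.020, Scn4b from -0.00050 to 0.45, Kcnh2 from -0.0035 to 0.27 and Hcn2 from -0.075 to 0.21. The cause of these changes was not tested. With 3 animals a group, a two-sided exact permutation test of 1 gene cannot go below p = 0.1, and the low counts of Kcnd3os, Scn10a, Kcna4 and other members (14 in the lowest library of Kcnc1) limit their precision.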
